A study of Mus musculus with 5 samples.

Results

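The 9 genes described here belong to the TGF-beta pathway and were chosen by name: the ligands Tgfb1, Tgfb2 and Tgfb3, the latent TGF-beta binding protein Ltbp1, the receptors Tgfbr1 and Tgfbr2, the feedback inhibitors Smad7 and Skil, and the secreted target Tgfbi. All 9 were found among the 27729 genes of the files. They were measured by RNA sequencing of total RNA while mouse embryonic fibroblasts (MEFs) were converted towards neuron-like cells in 5C medium. The MEFs came from ICR mouse embryos, from which the head and internal organs had been removed, and were kept in medium with fetal bovine serum until day 0. 5C medium is a serum-free DMEM/F12 with vitamin C, 2-mercaptoethanol and N2, to which bFGF and leukemia inhibitory factor are added. Cells were collected on day 0, before the change of medium, and on days 2, 5, 10 and 14, with 1 library per day. The labels call the medium 6C, and a protocol text beside them names a last day later than the label of the last library.

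TGF-beta is secreted in a latent form, in which the mature dimer is held by its own propeptide and tethered to the matrix by a latent TGF-beta binding protein. Once released, it binds the type II receptor Tgfbr2, which recruits and phosphorylates the type I receptor Tgfbr1, and Tgfbr1 in turn phosphorylates Smad2 and Smad3, which enter the nucleus with Smad4. In fibroblasts the pathway is known for inducing matrix and contractile genes, and in epithelial cells for inducing the epithelial–mesenchymal transition (EMT). The study used TGFβ and E616452, an inhibitor of Tgfbr1, to shift the balance between EMT and its reverse (MET) during the conversion, which raises the question of how the cells' own TGF-beta genes moved in 5C medium.

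The libraries held between 2253748 expected counts on day 2 and 3890334 on day 0. Expected counts are RSEM's estimates of the reads from each gene. At this depth 3 counts correspond to between 0.771 and 1.33 per 1000000 counts. The day 2 library was the smallest, and a single gene, Gm42418, took 4.79% of its counts against 0.0484% to 0.109% in the others. Cells at day 0 carried fibroblast RNA, with a summed 8661 TPM over 10 fibroblast markers and none of them at 0. Of this sum Vim alone made up 6775 TPM. TPM are transcripts per 1000000, a unit that allows for gene length. On the later days the libraries also held markers of other cells. Where 5 values stand together below they are those of days 0, 2, 5, 10 and 14 in turn, and where 4 do, those of days 2, 5, 10 and 14. Macrophage markers summed to 79.0, 616, 1860, 1315 and 817 TPM, and Schwann cell and neural crest markers to 12.8, 18.7, 220, 2063 and 2231 TPM. The 9 neuron markers summed to 131, 148, 234, 509.8 and 1228 TPM, of which Gap43 alone made up 1101 on day 14. Of the 6 in the comparison, 4 were over 2-fold above day 0 on each of days 5, 10 and 14, and 2 were below. Syp and Snap25, among the 4 above, were at 0 on day 0 and so could not have fallen. The neuronal nuclear marker Rbfox3 was listed at 0 in all 5 libraries. In bulk RNA, a change in the number of cells of a type and a change in the RNA per cell cannot be told apart.

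Tgfbi and both receptors rose, while Tgfb3, Smad7 and Skil fell. A gene was counted as changed when its normalized count differed over 2-fold from day 0, a threshold with no test behind it, since each day has 1 library. All 9 genes had the 10 or more expected counts in at least 1 library that placed 13346 genes in the comparison. On day 2, 1 of the 9 lay above day 0 and 4 below it, where 15.2% of all genes compared lay above and 13.1% below. On day 5, 3 were above and 3 below (all genes, 20.2% and 13.6%). On day 10 it was again 3 above and 3 below (28.7% and 22.3%), and on day 14 it was 3 above and 4 below (24.5% and 19.9%). The gene below day 0 besides Tgfb3, Smad7 and Skil was Tgfb2 on day 2 and Ltbp1 on day 14. The median log2 change of the 9 genes was −0.98, −0.40, −0.83 and −0.79 in turn, beside −0.03, 0.05, 0.14 and 0.07 for all genes compared. For the genes counted as changed, the 95% counting interval of the change lay wholly beyond 2-fold, except for Ltbp1 on day 14 (−1.34 to −0.94). These intervals cover counting error only and say nothing of the spread between cultures.

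**Figure D1:**
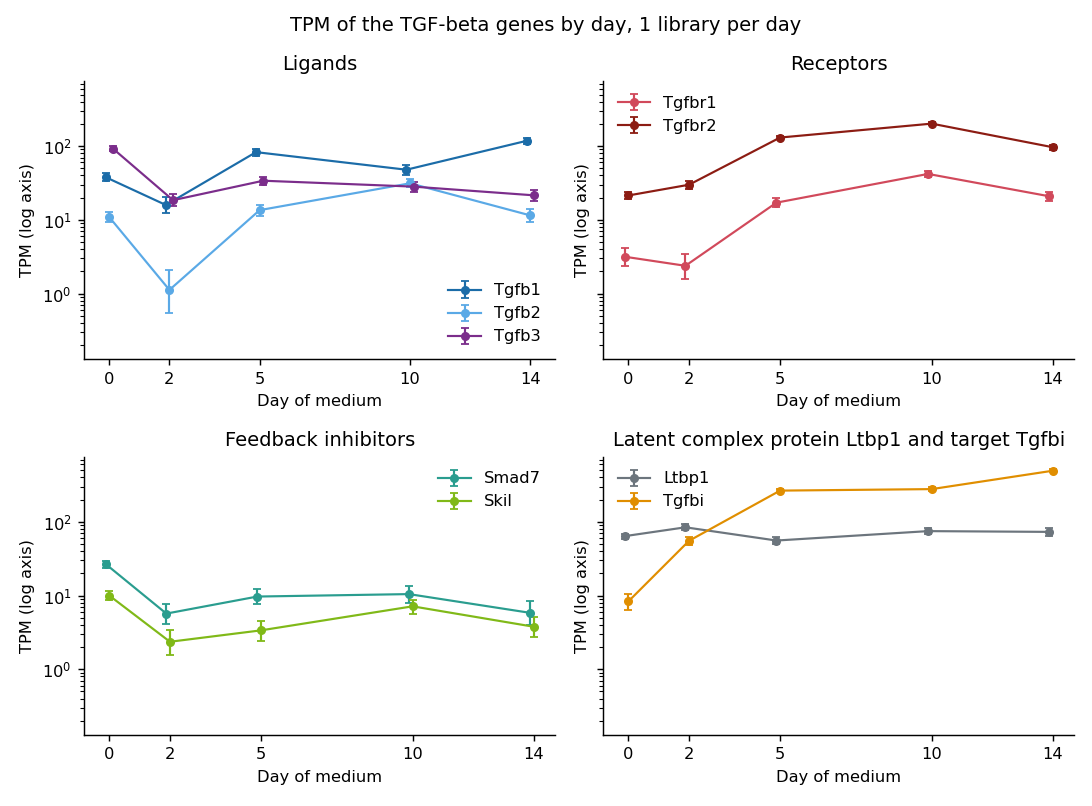
TPM on a log axis (y) against the day of medium (x) for the 9 genes, in 4 panels by role, with points for the 1 library of each day and bars for the 95% counting interval. Tgfbi climbed from 8.33 to 494 TPM, both receptors were highest on day 10, and Tgfb2 was lowest on day 2, at 1.12 TPM.

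Normalized counts were scaled by edgeR's TMM library sizes. On the TPM scale the median of all genes itself moved, by −0.20, 0.61, 1.09 and 0.78 on the log2 scale. Directions in TPM are therefore to be read against this shift. The share of called genes that lay above day 0 was 53.7%, 59.6%, 56.3% and 55.2% with normalized counts and 36.0%, 88.9%, 88.6% and 85.6% with TPM. Levels of different genes are compared below in TPM within a library, and changes of single genes between days in normalized counts unless TPM is named. Sums over several genes are given in TPM, so this shift applies to them between days.

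The ligands changed places. Tgfb3 was the main ligand transcript of the MEFs, Tgfb1 was that of the cells on day 14, and Tgfb2, the ligand with the lowest level on days 0, 2, 5 and 14, came to the level of Tgfb3 on day 10 (TPM ratio 1.11, 0.911 to 1.35). All 3 encode dimeric ligands that signal through the same receptors, and Tgfb2 depends on the co-receptor Tgfbr3 for high-affinity binding. Tgfb3 (chr12:86056745-86079041, minus strand; gene coordinates here are those of GENCODE on GRCm38, the mm10 build) had 892, 213, 199, 121 and 113 normalized counts. Its day 0 value stood apart from the 4 later ones, and most of the drop was in place by day 2. The log2 change was −2.06 (95% interval −2.35 to −1.78) on day 2. By day 14 it was −2.97 (−3.27 to −2.71), and 2.03% of all genes compared lay as low.

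Tgfb1 (chr7:25687002-25705077, plus strand), the ligand with the broadest known role in connective tissue and immune cells, went up and down by turns, with 234, 118, 312, 131 and 397 normalized counts. The 3 high values (days 0, 5 and 14) and the 2 low ones (days 2 and 10) alternated. Against day 0 none of its changes passed 2-fold, and they were −0.98 (−1.41 to −0.59), 0.42, −0.83 (−1.12 to −0.55) and 0.76 (0.53 to 1.00). On the TPM scale 3 of these passed 2-fold (−1.20, 1.11 and 1.61 on days 2, 5 and 14) and the day 10 change turned to 0.33, below the shift of all genes. Between neighbouring days the swings were larger. Tgfb1 rose by 1.40 (1.02 to 1.81) between days 2 and 5, fell by 1.24 between days 5 and 10 and rose by 1.59 (1.34 to 1.85) between days 10 and 14. Among all genes compared 19.0% rose over 2-fold and 12.5% fell in the first of these steps, 12.8% rose and 9.50% fell in the next, and 4.73% rose and 8.33% fell in the last. The fall to day 10 was −0.78 in TPM. Of the 9 genes 5 rose and 1 fell over 2-fold in the first step, 0 and 1 in the next, and 2 and 1 in the last. The sum of the macrophage markers, at 1860, 1315 and 817 TPM on days 5, 10 and 14, went down with Tgfb1 between days 5 and 10. It went further down between days 10 and 14, while Tgfb1 rose. Lyz2 alone made up 1252 TPM of the day 5 sum. In TPM Ptprc, Adgre1, Cd14 and Mrc1 rose between days 5 and 10, and the other markers of the list fell. The part of macrophages in the Tgfb1 values was not tested.

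Tgfb2 (chr1:186622792-186705989, minus strand) nearly disappeared on day 2 and came back. It had 146, 18.1, 111, 187 and 84.0 normalized counts. The day 2 value rested on 10 expected counts and was the lowest of any of the 9 genes in any library, with a log2 change of −2.95 (−4.11 to −2.10), and 0.974% of all genes compared fell as far. The later changes against day 0 stayed within 2-fold, at −0.40, 0.35 and −0.79. On the TPM scale the first and last of these were 0.29 and 0.07, both below the shift of all genes. The day 10 change was 1.44 in TPM, above that shift. Relative to genes of like length, the day 10 change turned to −0.44 and the day 14 change, at −1.25, passed 2-fold. Tgfb2 rose by 2.55 (1.69 to 3.71) between days 2 and 5 and fell by 1.15 between days 10 and 14.

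Within a library the share of each ligand in the summed ligand TPM does not depend on the scaling between libraries. Tgfb3 held 65.5%, 52.0%, 26.0%, 26.3% and 14.2%. Tgfb1 held 26.8%, 44.8%, 63.6%, 44.6% and 78.2%. Tgfb2 held 7.70%, 3.15%, 10.4%, 29.2% and 7.60%, so its share was largest on day 10. The ratio of Tgfb1 to Tgfb3 in TPM went from 0.409 (0.353 to 0.472) in MEFs to 5.49 (4.50 to 6.75) by day 14, and the ratio of their counts on day 14 was 13.4 times (10.5 to 17.3) that on day 0. The sum of all 3 ligands was 142, 35.5, 130, 107 and 151 TPM, lowest on day 2. On days 0 and 14 it was alike in TPM, a scale on which the median of all genes rose by 0.78. In normalized counts Tgfb3 went from 892 on day 0 to 113 on day 14, Tgfb2 from 146 to 84.0 and Tgfb1 from 234 to 397.

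**Figure D2:**
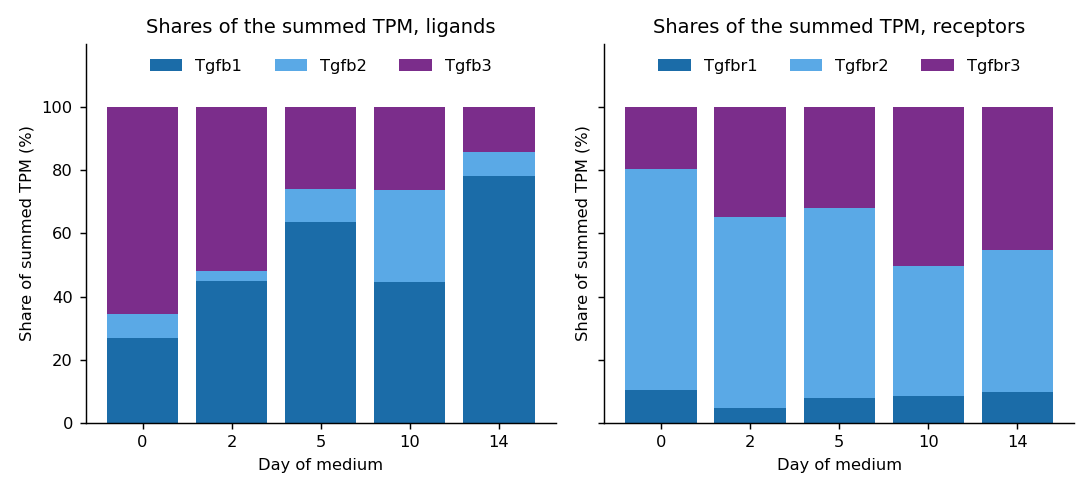
Stacked bars of the share (%, y) of each ligand in the summed ligand TPM (left) and of each receptor in the summed receptor TPM (right) on each day (x), 1 library per day. Tgfb1 grew from 26.8% to 78.2% of the ligands as Tgfb3 shrank from 65.5% to 14.2%, and Tgfbr3 went from 19.8% to 50.2% of the receptors by day 10.

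The bases before the start sites of Tgfb1 and Tgfb2 are shown because these ligands share receptors but moved in opposite directions between days 5 and 10 and between days 10 and 14. They come from RefSeq (GRCm38.p6), are read 5′ to 3′ on the strand of the gene, and lie at chr7:25686752-25687001 (plus strand) for Tgfb1 and chr1:186705990-186706239 (minus strand) for Tgfb2. Capitals mark matches, on either strand, to 5 motifs. They include CAGAC (a core bound by Smad3 and Smad4) and GTCTAGAC (a palindrome that shares its AGAC). The others are the AP-1 motif TGANTCA, the core promoter box TATAAA and the Sp1 box GGGCGG.
Tgfb1: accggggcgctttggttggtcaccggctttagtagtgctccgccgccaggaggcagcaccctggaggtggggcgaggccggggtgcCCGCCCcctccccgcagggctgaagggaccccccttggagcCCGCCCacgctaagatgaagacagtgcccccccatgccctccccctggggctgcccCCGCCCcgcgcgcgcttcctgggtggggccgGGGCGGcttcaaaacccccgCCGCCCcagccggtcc
Tgfb2: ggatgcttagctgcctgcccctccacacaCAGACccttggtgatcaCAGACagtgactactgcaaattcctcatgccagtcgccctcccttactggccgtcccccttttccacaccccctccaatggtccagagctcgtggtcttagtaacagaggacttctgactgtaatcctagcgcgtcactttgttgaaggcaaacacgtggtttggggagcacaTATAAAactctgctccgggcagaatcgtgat
The Tgfb1 window was 75.2% GC with 5 GGGCGG matches and no TATAAA or CAGAC. The Tgfb2 window was 53.6% GC with 1 TATAAA match, 2 CAGAC matches and no GGGCGG. Of 32851 windows of 250 bases before mouse start sites, 32.7% held GGGCGG, 12.4% TATAAA, 42.2% CAGAC, 6.75% the AP-1 motif and 0.167% GTCTAGAC. A match says only that these letters are present.

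Ltbp1 (chr17:75005568-75392512, plus strand), which binds latent TGF-beta to the matrix, was highest on day 2. It had 595, 860, 298, 307 and 271 normalized counts. The 2 early values lay above the 3 late ones, which were close to each other. The 4 changes against day 0 were 0.53 (0.35 to 0.70), −0.99, −0.95 and −1.13 (−1.34 to −0.94). With the deposited TPM the level was 63.9, 84.3, 55.7, 74.8 and 73.0, and the changes on days 10 and 14 turned to 0.22 and 0.19, both still below the shift of all genes. Relative to genes of like length, the changes on days 5, 10 and 14 were −1.24, −1.41 and −1.42, and with quantile normalization the day 14 change was −0.88. RSEM's gene length for Ltbp1, which weighs its isoforms, differed between libraries from 2401 to 3279 bases, so TPM and counts need not move together for this gene.

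Both receptors rose, and both peaked on day 10. Tgfbr2 (chr9:116084293-116175360, minus strand), the type II receptor that binds the ligand, had 287, 483, 1071, 1206 and 703 normalized counts. Every later value was above day 0. Its log2 changes were 0.75 (0.51 to 1.00), 1.90 (1.71 to 2.09), 2.07 (1.89 to 2.26) and 1.29 (1.10 to 1.49). Tgfbr1 (chr4:47353222-47414931, plus strand), the type I receptor kinase that phosphorylates Smad2 and Smad3, had 49.5, 47.0, 164, 282 and 183 normalized counts. Its first 2 values were alike and its last 3 were higher. The change on day 2 was −0.07 (−0.82 to 0.64), followed by 1.71 (1.27 to 2.21), 2.48 (2.08 to 2.96) and 1.86 (1.43 to 2.36). Between days 10 and 14 Tgfbr1 changed by −0.62 (−0.88 to −0.38) and Tgfbr2 by −0.78 (−0.90 to −0.65), neither past 2-fold, although Tgfbr2 changed by −1.06 in TPM. Both are long transcripts, and when the median change of genes of like length was taken off, Tgfbr2 on day 14 lay within 2-fold, at 0.83, and on day 10 the changes of Tgfbr1 and Tgfbr2 came to 1.44 and 1.28. On day 10, 90.2% of all genes compared lay at or below the change of Tgfbr1 and 87.0% at or below that of Tgfbr2.

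Tgfbr2 transcripts outnumbered Tgfbr1 transcripts in every library. Their TPM ratio was 6.78 (5.00 to 9.34), 12.6, 7.64, 4.81 and 4.62 (3.96 to 5.43). The co-receptor Tgfbr3 (betaglycan), which is not one of the 9 genes, went further up than either, from 105 normalized counts in MEFs to 362, 740, 1891 and 911, a change of 4.16 (3.89 to 4.47) on day 10. The 3 receptors together summed to 30.6, 49.7, 218, 490 and 214 TPM, a scale on which the median of all genes rose by 1.09 on day 10. Of the 9 Schwann cell and neural crest markers, of which Gjc3 was at 0 in MEFs, 4, 8, 9 and 9 were over 2-fold above day 0. Of the 14 macrophage markers 14, 13, 11 and 10 were above and 0, 1, 1 and 1 below. The part of these cells in the receptor values was not tested.

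The bases before the receptor start sites are shown because both receptors lay over 2-fold above day 0 in normalized counts on days 5, 10 and 14. They come from the same RefSeq source, with the same marks, and lie at chr4:47352972-47353221 (plus strand) for Tgfbr1 and chr9:116175364-116175613 (minus strand) for Tgfbr2.
Tgfbr1: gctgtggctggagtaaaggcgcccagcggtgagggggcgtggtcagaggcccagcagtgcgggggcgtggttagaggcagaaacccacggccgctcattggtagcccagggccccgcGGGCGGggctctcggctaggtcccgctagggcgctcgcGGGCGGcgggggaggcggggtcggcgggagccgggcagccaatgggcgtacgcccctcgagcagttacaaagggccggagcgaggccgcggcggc
Tgfbr2: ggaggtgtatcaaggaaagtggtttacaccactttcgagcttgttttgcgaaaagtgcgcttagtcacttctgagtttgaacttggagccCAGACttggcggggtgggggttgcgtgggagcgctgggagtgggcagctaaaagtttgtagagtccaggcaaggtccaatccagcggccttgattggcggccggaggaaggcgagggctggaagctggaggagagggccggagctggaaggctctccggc
The Tgfbr1 window was 74.8% GC with 2 GGGCGG matches and no CAGAC. The Tgfbr2 window was 58.4% GC with 1 CAGAC match and no GGGCGG. Neither held the core promoter box, the AP-1 motif or GTCTAGAC, and a second Tgfbr1 start in RefSeq, within the gene, is not shown.

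Both feedback inhibitors fell on day 2 and stayed low. Smad7 (chr18:75367529-75395935, plus strand) blocks the activated type I receptor, and its transcription is itself induced by TGF-beta. It had 326, 83.2, 63.0, 40.0 and 26.8 normalized counts. Each later library was lower than the one before it, but the last step was −0.56 with an interval of −1.27 to 0.09, and the step between days 2 and 5 was −0.40 (−0.96 to 0.16). The levels in TPM were 26.8, 5.69, 9.69, 10.5 and 5.82, with day 14 close to day 2. The 3 steps after day 2 were 0.68, 0.10 and −0.75 in TPM. Each lay below the median step of all genes on that scale, at 0.86, 0.39 and −0.24. The log2 change against day 0 was −1.96 (−2.45 to −1.52) on day 2. By day 14 it was −3.55 (−4.19 to −3.06), and 1.30% of all genes compared lay as low. In TPM the day 14 change was −2.02, where the median of all genes rose by 0.78. RSEM's gene length for Smad7 differed between libraries from 2978 to 4278 bases, so its TPM and counts need not move together.

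Skil (chr3:31095058-31122577, plus strand) encodes SnoN, a repressor that binds Smads at target genes. It had 188, 52.5, 38.5, 60.7 and 38.4 normalized counts, high on day 0 and between 38.4 and 60.7 afterwards. Its log2 change was −1.82 (−2.46 to −1.27), −2.26 (−2.80 to −1.81), −1.62 (−2.02 to −1.25) and −2.26 (−2.80 to −1.81). The day 10 change was −0.43 in TPM, where the median of all genes rose by 1.09. Its largest count after day 0 was 85, so the differences among the later libraries rest on few reads. The ratio of Smad7 to Skil counts on day 2 was 0.916 (0.543 to 1.57) of that on day 0, so the first drop could not be told from an equal one, and on day 14 it was 0.404 (0.236 to 0.683).

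Set against the receptors, the inhibitors ended much lower. Tgfbr2 had 0.800 (0.681 to 0.940) as many transcripts as Smad7 on day 0, and 5.26, 13.5, 19.3 and 16.6 times as many later. In counts, which do not allow for gene length, the ratio on day 14 was 29.7 (19.8 to 45.8) times that on day 0. The order of these genes within a library therefore changed as well as their levels. On day 0 the order by TPM was Tgfb3, Ltbp1, Tgfb1, Smad7, Tgfbr2, Tgfb2, Skil, Tgfbi and Tgfbr1, from high to low, with Tgfb2 not apart from Skil, and Skil not apart from Tgfbi, beyond counting error. On day 14 it was Tgfbi, Tgfb1, Tgfbr2, Ltbp1, Tgfb3, Tgfbr1, Tgfb2, Smad7 and Skil, with Tgfb3 not apart from Tgfbr1 and Smad7 not apart from Skil.

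**Figure D3:**
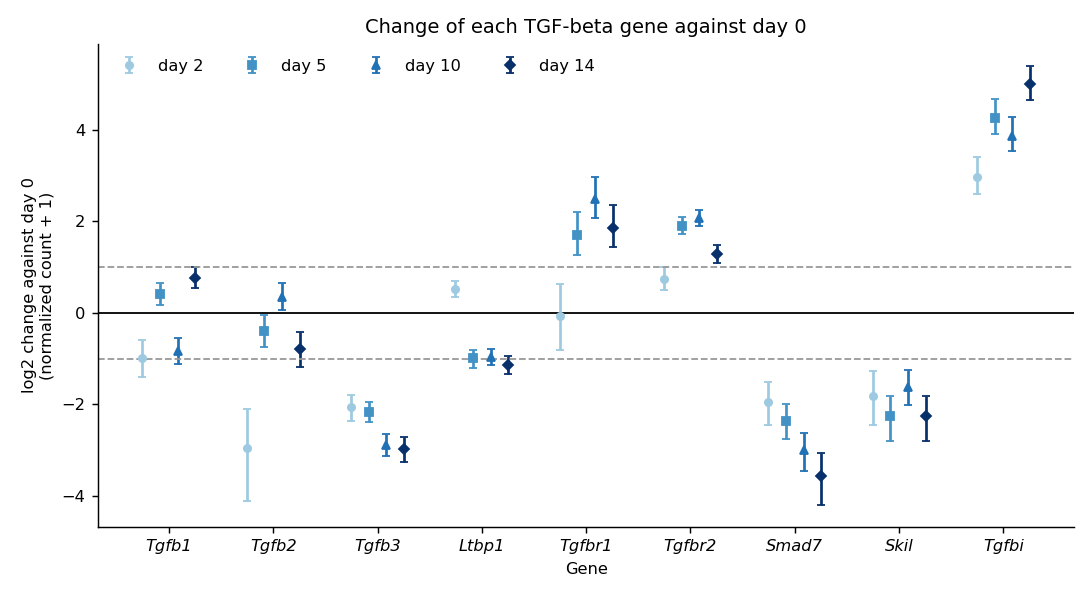
log2 change of the normalized count against day 0 (y) for each gene (x) on days 2, 5, 10 and 14, with bars for the 95% counting interval and dashed lines at 2-fold. Tgfb3, Smad7 and Skil lie below the lower line on all 4 days, and Tgfbi lies above the upper line on all 4, from 2.97 on day 2 to 4.99 on day 14.

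Tgfbi had the largest change of the 9 genes in either direction. It encodes a secreted matrix protein that binds collagens and integrins and was named for its induction by TGF-beta. Tgfbi (chr13:56609523-56639562, plus strand) had 63.3, 505, 1231, 940 and 2046 normalized counts. The day 0 value was the lowest, and even the day 2 value was well clear of it. Its log2 changes were 2.97 (2.60 to 3.41), 4.26 (3.92 to 4.67), 3.87 (3.53 to 4.28) and 4.99 (4.66 to 5.40). On day 14, 98.4% of all genes compared lay at or below it. The step between days 10 and 14 was 1.12 (1.02 to 1.22), or 0.83 in TPM, and the one before it −0.39, or 0.07 in TPM. In TPM Tgfbi went from the last but one of the 9 genes on day 0 (8.33) to the first on days 5, 10 and 14 (265, 278 and 494). Against Smad7, which TGF-beta also induces, its TPM ratio went from 0.311 (0.234 to 0.408) to 84.9 (59.3 to 126).

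Macrophages are a known source of Tgfbi, and their markers moved with it at first. All 14 macrophage markers were over 2-fold above MEFs on day 2. On the next 3 days 13, 11 and 10 of them were above and 1, Itgam, was below. At day 0 Ptprc, the pan-leukocyte marker, was listed at 0, and later it lay between 0.110 and 2.69 TPM. Its day 2 value rested on 1 count. The markers' sum peaked on day 5, also without Lyz2, their most abundant member (48.7, 340, 608, 433 and 318 TPM), while Tgfbi was highest on day 14. The sum of the fibroblast markers, at 8661, 4805, 9510, 16558 and 23312 TPM, was highest on day 14 as well. Vim alone made up 15668 TPM of the day 14 sum. Of the 10 markers, 3 were over 2-fold above day 0 on day 14 and 3 below. The part of macrophages or fibroblasts in the Tgfbi values was not tested.

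The bases before the Tgfbi start site are shown because Tgfbi had the largest rise. They lie at chr13:56609336-56609522 (plus strand), from the same RefSeq source with the same marks, and stop where GENCODE places the start of the gene.
Tgfbi: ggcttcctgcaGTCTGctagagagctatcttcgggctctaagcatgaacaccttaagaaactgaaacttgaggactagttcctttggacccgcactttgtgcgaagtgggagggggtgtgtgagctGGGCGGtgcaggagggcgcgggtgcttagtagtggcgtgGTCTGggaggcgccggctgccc
The window of 250 bases was 62.4% GC, with 2 CAGAC matches and 1 GGGCGG match, all within the bases shown, and no match to the other 3 motifs.

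**Figure D4:**
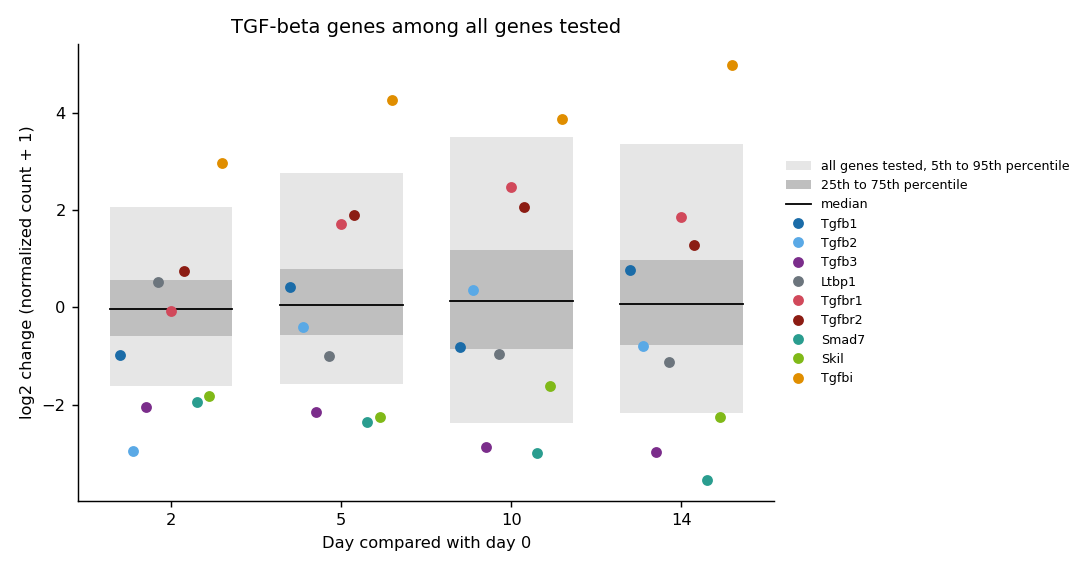
log2 change of the normalized count against day 0 (y) on each later day (x), with coloured points for the 9 genes, grey bands for the 5th to 95th and 25th to 75th percentiles of all 13346 genes compared, and a line at their median. Tgfbi lies above the band on all 4 days, while Tgfb3 and Smad7 lie below it on all 4.

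Among the other genes of the pathway, the targets Acta2, Tagln, Ccn2 and Lox fell, and Dcn, Col3a1 and Tgfbr3 rose. The list holds 42 genes, of which 41 were in the comparison and 1, the integrin subunit Itgb6, was not. Of the 41, 7, 11, 13 and 14 lay over 2-fold above day 0 and 14, 10, 10 and 12 lay below, to be read beside the shares of all genes given above. The median change was −0.46, 0.09, 0.32 and 0.23. Of the 14 targets, 2 lay over 2-fold above day 0 and 8 below on day 2 (all genes, 15.2% and 13.1%). On day 14, 4 lay above and 5 below (24.5% and 19.9%). Acta2, the smooth muscle actin of myofibroblasts, had 32045, 3325, 666, 253 and 142 normalized counts, a change of −7.81 (−8.05 to −7.59) on day 14. Tagln, an actin-binding protein of contractile cells, changed by −6.48 on day 14. Ccn2 (connective tissue growth factor) changed by −4.99 on day 14, and Lox, which cross-links collagen, by −4.04.

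These 4 targets were over 2-fold below day 0 on all 4 days, and Tgfbi, also named as a target, lay above it on all 4. Col3a1 (type III collagen) rose on all 4 days, with 1316, 3756, 11826, 17422 and 19193 normalized counts and a change of 3.87 on day 14, although the day 2 change of 1.51 was 0.88 in TPM. Fn1 (fibronectin), the target with the highest mean TPM, stayed within 2-fold in normalized counts, at 0.10, 0.58, 0.75 and −0.52. With quantile normalization the last 3 were 1.30, 1.80 and 0.45. In TPM the day 2 and day 14 changes turned to −0.19 and 0.26, the latter below the shift of all genes. Those of days 5 and 10 became 1.23 and 1.41 in TPM.

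Genes that hold or free latent TGF-beta went both ways. Of the 9 compared, 4 were over 2-fold above day 0 and 3 below on day 14 (all genes, 24.5% and 19.9%). Thbs1 (thrombospondin-1, an activator of latent TGF-beta) fell from 8138 to 944, 723, 1137 and 856 normalized counts, a change of −3.25 on day 14. Ltbp3, another latent TGF-beta binding protein, rose from 313 to 897, 1184, 982 and 1315 normalized counts, a change of 2.07 on day 14. Itgb8, the partner of Itgav in the integrin that activates latent TGF-beta, had 8.91, 1.81, 27.1, 183 and 115 normalized counts, and its changes of 4.21 (3.41 to 5.50) and 3.54 (2.71 to 4.84) on days 10 and 14 rest on 9 counts on day 0. Itgav itself stayed within 2-fold in normalized counts, at 0.41, −0.56, 0.90 and −0.38, but not on other scales. In TPM it changed by −1.13, −0.27 and −1.09 on days 5, 10 and 14, and with quantile normalization by 1.55 on day 10. Nrros, which tethers latent TGF-beta on macrophages and microglia, had 2 counts on day 0 and 10, 36, 21.0 and 19 afterwards. Its change was 3.45 (2.03 to 7.09) on day 5, the day on which the sum of the macrophage markers peaked.

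Smad2, and Zfyve9, an anchor that presents Smads to the receptor, stayed near or within 2-fold of day 0 in normalized counts. Of the 4 genes of this group 0, 1, 2 and 0 lay over 2-fold above day 0 (all genes, 15.2%, 20.2%, 28.7% and 24.5%) and none below. They were Smad3, at 1.13 on day 5 and 1.39 on day 10, and Zfyve9 on day 10. In TPM the changes of Smad2 were −1.02, 1.14, 2.04 and 1.40, and Zfyve9 changed by 1.63 on day 14. Smad2 had 94.0, 48.8, 128, 136 and 118 normalized counts, and its change was 0.32 (−0.06 to 0.72) on day 14. Zfyve9 changed by 1.07 (0.62 to 1.57) on day 10 and 0.74 on day 14. Of the 11 inhibitors, 4 lay over 2-fold above day 0 and 3 below on day 14 (all genes, 24.5% and 19.9%). Dcn (decorin), a proteoglycan that binds TGF-beta and a marker of fibroblasts, rose from 102 to 621, 1741, 2191 and 2989 normalized counts, a change of 4.86 (4.59 to 5.17) on day 14. Pmepa1, a TGF-beta-induced protein that keeps Smads from the receptor, also fell, from 1122 to 501, 194, 125 and 200 normalized counts. Its change was −3.16 on day 10, its lowest day. In TPM it was 90.0, 32.3, 32.9, 31.6 and 36.2, with the later values close to that of day 2.

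**Figure D5:**
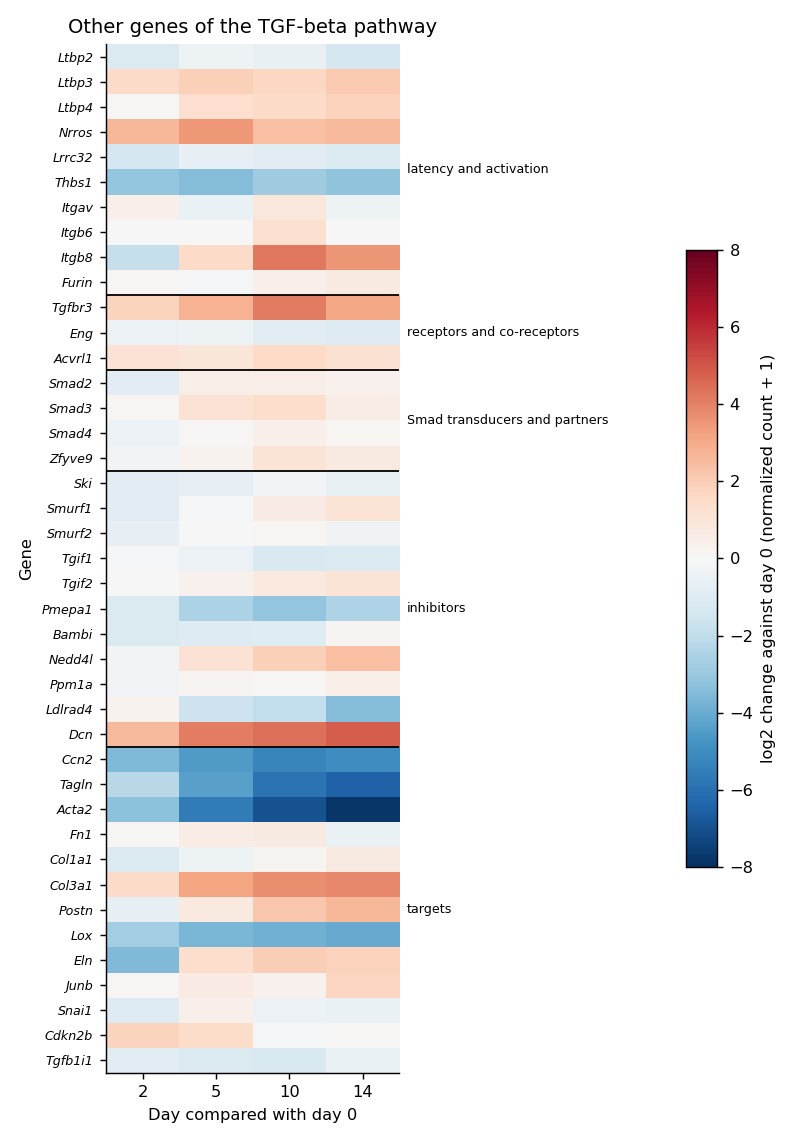
log2 change of the normalized count against day 0 (colour, red above and blue below) for 41 of the 42 other genes of the pathway (y, grouped by role) on days 2, 5, 10 and 14 (x). Acta2 (−7.81 on day 14) is the darkest blue cell and Dcn (4.86 on day 14) is the darkest red, and the Itgb6 row rests on 2 counts.

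The genes whose 4 changes were most like those of the most changed members were sought among the 8273 genes that reached 100 expected counts in at least 1 library. Likeness was the Euclidean distance between the 4 log2 changes, a description over 5 libraries. Col18a1 (type XVIII collagen) was closest to Tgfbi, at a distance of 0.52, with 267, 1894, 3818, 4620 and 9138 normalized counts. Dcn, at 0.70, and the imprinted gene Mest, at 0.96, followed. Closest to Smad7 were Htr1b (a serotonin receptor), at 0.50, Actn1 (alpha-actinin, which cross-links actin), at 0.51, with 3101, 1076, 707, 374 and 238 normalized counts, and Cd24a (a cell surface glycoprotein), at 0.52.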

How the data were processed

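RNA-seq libraries of 5 days, with 1 library per day, were assigned to days by their labels. The authors deposited expected counts per gene, RSEM's estimates of reads without scaling for depth, with TPM values beside them, scaled for gene length and to 1000000 in each library. The submitters' processing notes name Bowtie, RSEM and mm10, and their versions are not given in the sources used here. The FPKM column was not used. Gene symbols and coordinates came from GENCODE M21 (GRCm38), which matched 27247 of 27729 identifiers and left 482 unmatched.

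Expected counts were rounded to whole numbers for TMM library sizes (edgeR 4.0.16, R 4.3.3). Changes are log2 ratios of normalized counts with a pseudocount of 1. Intervals are exact 95% Clopper-Pearson intervals of the 2 counts, or exact conditional intervals of an odds ratio for ratios between days, and cover counting error only. Since each day has 1 library, no test was run. Alternatives were DESeq2 1.42.0 size factors, TPM, quantile normalization, centring by gene length (each change minus the median change of genes in the same of 10 length classes), a pseudocount of 5, other filters and a 4-fold threshold. Library sizes without day 2 are an alternative chosen after seeing the data. Scripts were tested on simulated data. The members and the gene lists were chosen with earlier results of these data known. All 9 members are named. Of the pathway list, the genes named are, per role, the one with the highest mean TPM, those over 2-fold from day 0 in 1 direction or the other on all 4 days, and the one with the largest change on day 14 among genes with 100 or more expected counts. Other pathway genes were counted but not described, except Smad3, named after its values were seen, and 1 gene of the list is counted but not reported here. Computations ran in Python 3.11.15 (scipy 1.17.1, numpy 2.4.6, pandas 2.3.3).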

Additional observations from a re-analysis of the deposited data

How the results depend on the processing

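Of the 36 changes of the 9 genes against day 0, the sign held in all 36 with DESeq2 size factors, quantile normalization, library sizes without Gm42418 and Lars2, and a pseudocount of 5, and in all 27 that remain without the day 2 library. It changed in 5 with TPM and in 2 with centring by gene length. Of these, 1 had passed 2-fold: Ltbp1 on day 14, −1.13 with normalized counts and 0.19 with TPM. The side of the 2-fold threshold changed for 2 with DESeq2 size factors, 6 with TPM, 1 with quantile normalization and 4 with centring by length. With TPM the median change of the 9 genes became 0.29, 0.33 and 0.19 on days 5, 10 and 14, and that of the pathway list 0.82, 1.38 and 0.99, where the median of all genes also moved up, and 18 and 25 pathway genes lay above 2-fold on days 5 and 10. With a 4-fold threshold, by construction fewer genes passed: 2 members below on day 2 and 1 above on each of days 5 and 14, with 2 pathway genes above and 7 below on day 2 and 4, 6 and 8 above on days 5, 10 and 14. No paired analysis was possible because each day has 1 library. Depth limits Tgfb2, Tgfbr1 and Skil on day 2 most, with 10, 26 and 29 expected counts, and no value here carries the spread between cultures.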
